A study of Mus musculus with 15 samples.

Results

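The genes described here are 10 markers of blood vessel endothelium and its close relatives: Ptprb, Tek, Kdr, Flt1, Pecam1, Cdh5, Stab2, Lyve1, Clec4g and Tm4sf1. They were chosen by gene name on the array design, with their signals in the cultures and in primary cells already known, and every probe that carried one of the names was taken. That gave 24 probes of 41174 for 10 genes of 27343. Because the values in the 2 media and in primary cells chose the set, those values are given as a description with no test, and tests of these 10 genes are kept to differences between mice. Genes outside the set were tested in every comparison.

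The series measured gene expression in expandable hepatocytes, mouse liver cells that keep dividing in culture, on 15 1-colour Agilent arrays. The 7 eHep arrays were taken to be cells in expansion medium and the 7 mHep arrays cells in differentiation medium, both grown for 21 days, although the labels do not spell out either name. The cultures came from 3 mice: 129S1-No1 with 3 arrays in each medium, C57B6-No1 with 3 in each, and 129S1-No2 of the same strain as the first with 1 in each. The remaining array held freshly isolated hepatocytes of C57B6 mice, obtained by collagenase perfusion. No transgene, agent or allele is labelled for any group. The mHep array of 129S1-No2 carries a source name of eHep cells and was placed by its title. The labels do not say whether replicates of a mouse were separate cultures, so p-values between mice measure only the spread between arrays of 1 mouse each and cannot speak of strains.

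Endothelial cells line blood vessels and are held together by junction proteins such as Pecam1 and the cadherin Cdh5. They sense angiopoietins through the receptor tyrosine kinase Tek (Tie2) and vascular endothelial growth factors through Flt1 and Kdr, and the phosphatase encoded by Ptprb (VE-PTP) acts on Tek and on Cdh5-based junctions to dampen signalling. The sinusoidal endothelium of liver is fenestrated, is known for scavenger receptors and lectins such as Stab2, Lyve1 and Clec4g, and lies against the hepatocytes, so it can be carried along when hepatocytes are isolated. Tm4sf1, an L6 family membrane protein with tetraspanin-like topology, is abundant in endothelium and also in many dividing epithelial and tumour cells.

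Signals are the background-subtracted processed signals of the scanner, with no scaling between arrays. A level is the log2 of that signal minus the log2 of the array's own 75th percentile, and a probe is called well above background where the scanner software flagged most of its spots so. That percentile was 78.3 on the primary array and 248.6 to 826.6 on the 14 cultured arrays, with 36.3% against 48.8% to 61.9% of probes well above background. The dimmest reading called well above background therefore sat at a level of -2.11 on the primary array and between -5.91 and -3.73 on the cultured arrays, so a weak gene is lost sooner in primary cells on the level scale. Folds against primary cells are folds of levels and take in the lower percentile of the primary array. The arrays were read in 2 scans: the later one held 10 arrays, the first 2 replicates of C57B6-No1 and all of 129S1-No1 in each medium, and the earlier one the remaining 5, among them the primary array. Hepatocyte markers checked the labels: all 10 were well above background on the primary array, 8 to 9 on mHep arrays and 4 to 7 on eHep arrays.

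**Figure D1:**
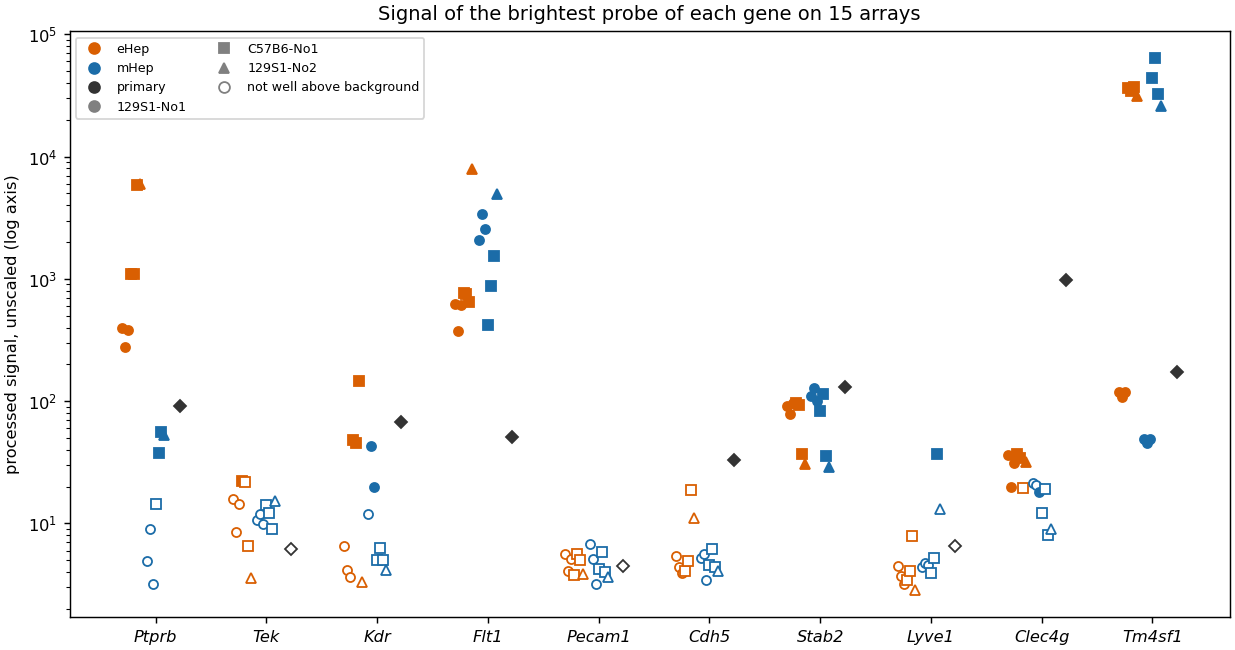
Unscaled processed signal (log axis) of the brightest probe of each of the 10 genes on all 15 arrays, with colour for the group, shape for the mouse and open symbols where the probe was not well above background. Ptprb separates eHep (275.2 to 6018) from mHep (3.2 to 55.6), Tm4sf1 separates 129S1-No1 (45.2 to 119.1) from the other mice (25872 to 64183), and Clec4g is bright only on the primary array (977.9). Signals of different genes come from different probes and are not to be compared.

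With its brightest probe, Ptprb was bright in eHep and near background in mHep of every mouse. The array carries 4 Ptprb probes, all on the plus strand of chromosome 10 in mm9, and they did not report alike, so their first 30 bases are shown, 5′ to 3′, with no letters marked. The first is the probe used here, at chr10:115820912-115820971. The others lie at chr10:115823295-115823354, chr10:115756725-115756784 and chr10:115752473-115752532 in the order printed. Exon or untranslated region was not assigned, because the annotation at hand is of another build.
Ptprb, probe A_51_P215475: caatctactcgagacattaagaattcacct
Ptprb, probe A_51_P307680: tttctctcttgaaaagatctaatacaaatc
Ptprb, probe A_51_P290931: tctgtactccctaaaggtgagctattataa
Ptprb, probe A_52_P54640: cgttaacatttatccatcttcgtgaagaga

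The signal of the Ptprb probe used was 397.9, 275.2 and 379.6 in eHep of 129S1-No1, 1099.2, 1103.7 and 5850.3 in eHep of C57B6-No1, and 6017.8 in eHep of 129S1-No2. In mHep it was 4.9, 9.0 and 3.2 in 129S1-No1, 14.3, 37.4 and 55.6 in C57B6-No1, and 52.9 in 129S1-No2. Primary cells read 90.6. The ranges of eHep and mHep did not overlap, the primary array lay between them on this unscaled signal, and 129S1-No1 was the lowest mouse in both media. The probe was well above background on all 7 eHep arrays, on 3 of 7 mHep arrays and on the primary array.

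On the level scale Ptprb stood at 1.69 ± 1.37 in eHep and -4.80 ± 1.91 in mHep (mean ± SD over 3 mouse means), and at 0.21 on the primary array. Within a mouse the log2 difference from eHep to mHep was -7.18 in mouse 129S1-No1, -5.95 in mouse C57B6-No1 and -6.35 in mouse 129S1-No2. Taking dark mHep readings at the background limit, mHep was at least 56.2-fold lower than eHep. Against the primary array mHep was at least 20.1-fold lower and the eHep mean was 1.48 higher on the log2 scale. The eHep cells of 129S1-No1, at levels of 0.13 to 0.28, bracketed the primary level, while those of the other mice, at 1.43 to 3.15, lay above it. In bulk RNA, fewer cells of a type and less RNA per cell cannot be told apart. With the probe used, the eHep level of Ptprb above primary cells was seen with 2 mice, C57B6-No1 and 129S1-No2. With the same probe, the difference between the media was seen in all 3 mice.

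The other 3 Ptprb probes were well above background only on the eHep array of 129S1-No2, where, in the order printed, they read 41.3, 79.7 and 34.2. On that array all 4 probes were at their brightest. On the eHep array of C57B6-No1 whose main probe read 5850.3, they read 10.5, 16.1 and 8.7, none well above background. In 129S1-No1 and C57B6-No1 the Ptprb difference therefore rests on 1 probe, since the other 3 were dark in both media. The size of the difference rests on that probe in all 3 mice. It was -2.70 on the log2 scale as the mean of all 4, and -4.01 for the single probe with normexp background. The fit of mHep against eHep called 1.38% of 14596 genes higher and 0.452% lower, and of the 5 members bright enough to enter it, Ptprb was the one called, lower. This contrast chose the set, so nothing is read from that count. The members that did not enter were Pecam1, Cdh5, Kdr, Tek and Lyve1.

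**Figure D2:**
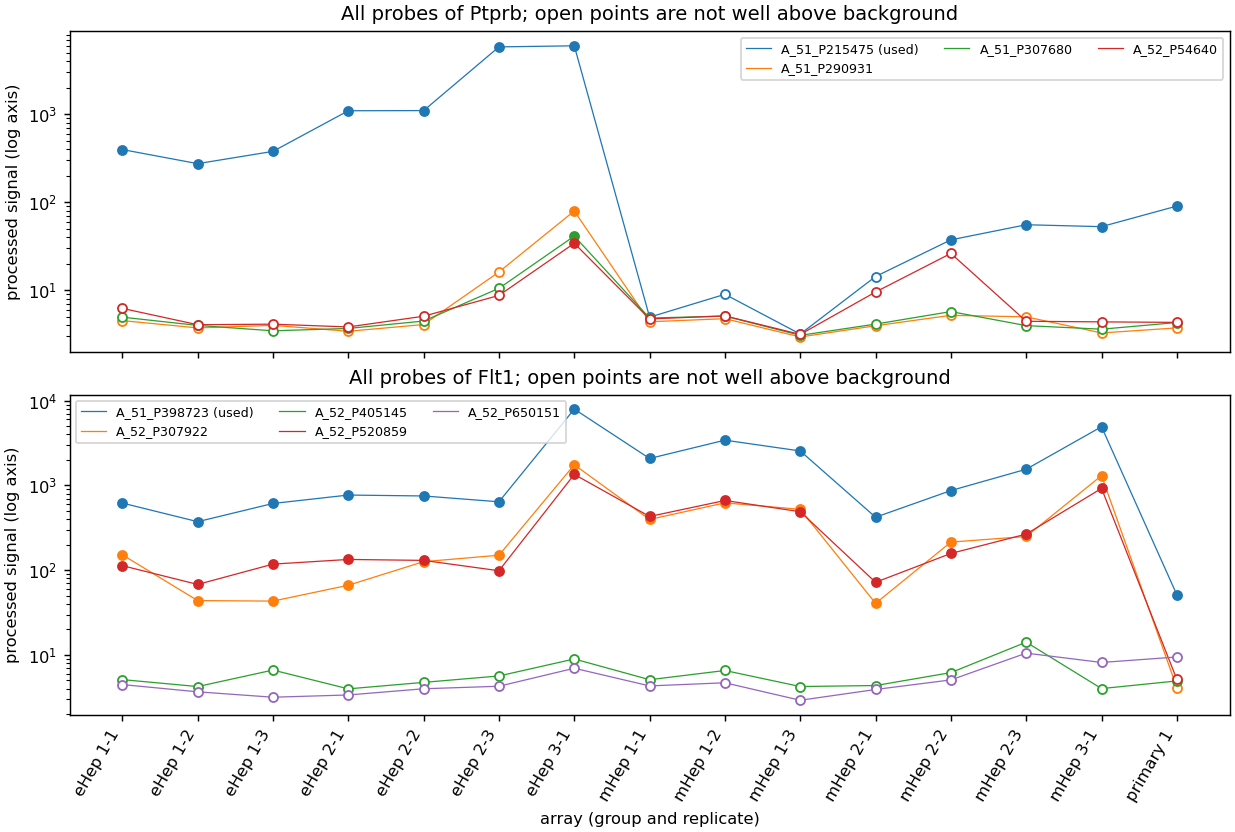
Processed signal (log axis) of all 4 Ptprb probes and all 5 Flt1 probes on each array, 1 point per array and probe, filled where well above background, with lines only to guide the eye between arrays. The Ptprb probe used falls from 275.2 or more in eHep to 55.6 or less in mHep, while the other 3 leave background only on the eHep array of 129S1-No2. The 3 Flt1 probes that leave background do so on all 14 cultured arrays.

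Flt1, a decoy-like receptor for vascular endothelial growth factor, was on in all 14 cultured arrays and dim in primary cells. Of its 5 probes, on the minus strand of chromosome 5 in mm9, the brightest lies at chr5:148373791-148373850 and begins as follows, with another bright probe next to it at chr5:148373864-148373923 and one farther off at chr5:148449781-148449840, printed in this order to show which sequences reported.
Flt1, probe A_51_P398723: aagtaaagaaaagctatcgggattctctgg
Flt1, probe A_52_P520859: cctgtattattccgattttaataatctaat
Flt1, probe A_52_P307922: caccaagctttgatggcattcaaagatgtc

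In eHep the brightest Flt1 probe read 619.6, 373.5 and 612.7 in 129S1-No1, 770.3, 751.2 and 641.3 in C57B6-No1, and 7955.6 in 129S1-No2. In mHep it read 2079.2, 3422.0 and 2551.2 in 129S1-No1, 421.6, 870.1 and 1553.0 in C57B6-No1, and 4926.1 in 129S1-No2. Primary cells read 51.2, well above background but below every cultured array. Both arrays of 129S1-No2 were the highest of their group, and eHep and mHep overlapped.

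As levels, Flt1 stood at 1.55 ± 1.49 in eHep, 1.96 ± 1.12 in mHep (mean ± SD over 3 mouse means) and -0.61 in primary cells. The change from eHep to mHep was 1.21 in mouse 129S1-No1, 0.21 in mouse C57B6-No1 and -0.21 in mouse 129S1-No2, and so had no common direction. These other 2 probes were well above background on all 14 cultured arrays and not on the primary array, where they read 5.2 and 4.1. They ranged from 67.9 to 1350.0 and from 43.2 to 1754.4 in eHep, and were again highest in 129S1-No2. The remaining 2 Flt1 probes were not well above background on any array. The eHep mean was 2.16 above the primary level and the mHep mean 2.57 above it on the log2 scale. The fit of eHep against the primary array called 6.53% of genes higher and 10.6% lower, that of mHep 4.29% higher and 6.32% lower. In each of these fits 7 members entered and 2, Cdh5 and Clec4g, were called, both lower in culture. The rule used these contrasts, and nothing is read from those counts. With a single primary array, the fit takes its spread to be that of the cultured means.

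Kdr, the main signalling receptor for vascular endothelial growth factor, was seen in expansion medium of 1 mouse, in differentiation medium of another, and in primary cells. Its brighter probe lies at chr5:76329309-76329368 on the minus strand in mm9 and was printed 10 times on each array.
Kdr, probe A_51_P316553: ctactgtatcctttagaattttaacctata
In eHep the mean over its spots was 6.5, 4.2 and 3.6 in 129S1-No1, 48.5, 45.5 and 146.6 in C57B6-No1, and 3.3 in 129S1-No2. In mHep it was 11.9, 42.9 and 19.9 in 129S1-No1, 5.0, 6.3 and 5.0 in C57B6-No1, and 4.2 in 129S1-No2. Primary cells read 67.0. Well above background were thus the 3 eHep arrays of C57B6-No1, 2 of the 3 mHep arrays of 129S1-No1 and the primary array, and 129S1-No2 was at background in both media. In C57B6-No1 the measured difference from eHep to mHep was -3.66, with mHep dark, and no change is read for the other mice, whose eHep arrays were dark. Against the level of -0.22 in primary cells, eHep was at least 16.2-fold and mHep at least 23.8-fold lower over all mice.

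The repeated spots show how firm these weak readings are. On the 3 eHep arrays of C57B6-No1 and on the primary array, all 10 spots of the Kdr probe were well above background, as on mHep replicate 2 of 129S1-No1, and 7 of 10 were on replicate 3 of that mouse. A second Kdr probe, also in 10 spots, had spot medians of 3.3 to 6.9 and 8 of 150 readings well above background, the brightest at 62.4. The Pecam1 probe, likewise in 10 spots, had spot medians of 3.0 to 5.9 and 4 of 150 readings well above background, the brightest at 126.6. On no array were more than 2 of the 10 spots of these 2 probes well above background, whereas the brighter Kdr probe had 7 or all 10 on the arrays named.

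**Figure D3:**
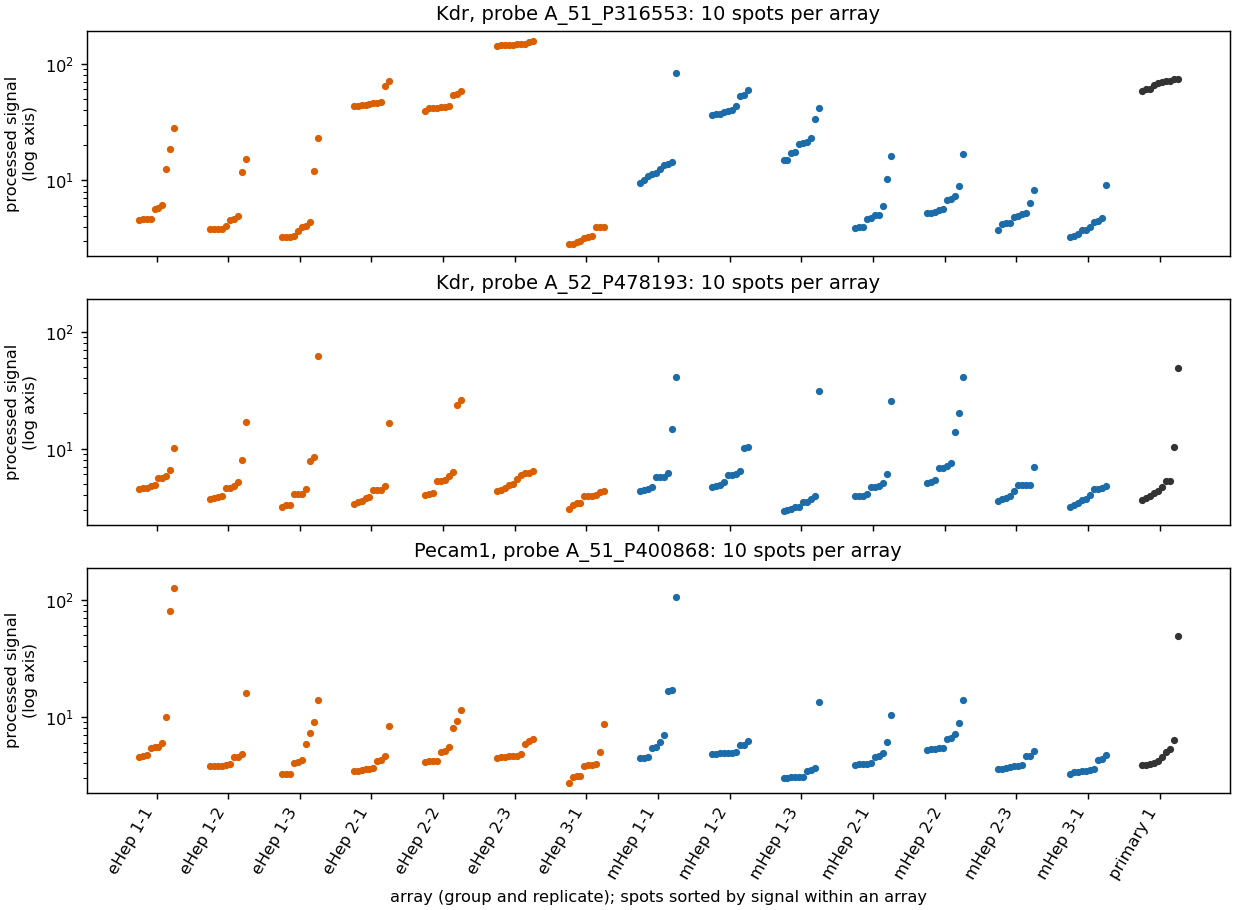
Processed signal (log axis) of every spot of 3 probes printed 10 times per array, sorted within each array, coloured by group (orange eHep, blue mHep, black primary). The brighter Kdr probe reads high in all spots on the C57B6-No1 eHep arrays (replicates 2-1 to 2-3) and on the primary array, while the second Kdr probe and the Pecam1 probe have at most 2 spots well above background on any array.

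Tek, the receptor kinase on which the Ptprb phosphatase acts, was near background in every group, including the eHep cells with bright Ptprb. Its brighter probe read 3.6 to 22.3 in eHep (median 14.5), 9.0 to 15.4 in mHep (median 11.9) and 6.2 on the primary array. One eHep array of C57B6-No1 was called well above background, and the other 14 arrays were not, with full overlap of the groups. The second Tek probe was dark on all 15 arrays.

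The junction genes were not well above background on any cultured array. Pecam1 read 3.8 to 5.7 in eHep (median 5.0), 3.2 to 6.8 in mHep (median 4.2) and 4.5 on the primary array, and a second probe was dark throughout. Pecam1 thus gave no signal in primary cells against which a loss in culture could be measured. For Cdh5 the brighter probe read 3.9 to 18.9 in eHep (median 4.9) and 3.4 to 6.2 in mHep (median 4.6), against 33.3, well above background, on the primary array. No cultured array reached the primary signal of Cdh5. Counted from the background limit of each cultured array, Cdh5 was at least 12.3-fold lower in eHep and at least 13.1-fold lower in mHep than the primary level of -1.23. On the unscaled signal these limits were 13.7 to 22.4 in eHep and 14.4 to 25.7 in mHep, nearer to the primary 33.3. The other Cdh5 probe was dark on every array, the primary array included.

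Clec4g, a lectin of sinusoidal endothelium, was bright in primary cells and near background in both media. Of its 3 probes, 2 were dark on all arrays, and the one that reported lies at chr8:3716182-3716241 on the minus strand in mm9.
Clec4g, probe A_51_P145662: tgtcagtctcaaaatcactgctctaaaccc
It read 19.6 to 36.8 in eHep (median 31.6), 8.0 to 21.4 in mHep (median 18.1) and 977.9 on the primary array. All cultured arrays were far below the primary array, and eHep and mHep overlapped narrowly on this unscaled signal. Clec4g was well above background on 6 of 7 eHep and 1 of 7 mHep arrays. As levels it stood at -4.05 ± 0.64 in eHep and -5.45 ± 0.52 in mHep (mean ± SD over 3 mouse means), against 3.64 in primary cells. That placed eHep at least 205-fold and mHep at least 374-fold below primary cells. Between the media the change was -1.62 in mouse 129S1-No1, -1.24 in mouse C57B6-No1 and -1.32 in mouse 129S1-No2, the same way in each mouse and at least 1.81-fold on the mean.

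Stab2, a scavenger receptor that clears hyaluronan in liver sinusoids, was well above background on all 15 arrays with its only probe, and its level moved with the scan. On the 10 cultured arrays of the later scan the signal was 79.2 to 127.2 (median 96.3). On the 4 cultured arrays of the earlier scan it was 28.7 to 37.0 (median 33.1), and on the primary array, also of the earlier scan, it was 130.4. As levels these are -2.68 to -1.61, -4.76 to -4.16, and 0.74. The primary array was the highest, and the scans did not overlap in either medium. Among C57B6-No1 arrays alone, replicate 3 of each medium, at levels of -4.16 and -4.30, lay below the 4 arrays of the later scan, at -2.33 to -1.61. Mouse and scan overlap in these samples and the part of the scan in this pattern was not tested. Between eHep and mHep the difference was -0.12, less than the spread between mice.

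Lyve1, a hyaluronan receptor of sinusoidal and lymphatic endothelium, was at background in primary cells too. Its brighter probe read 2.8 to 7.8 in eHep (median 3.7), 3.9 to 36.9 in mHep (median 4.8) and 6.6 on the primary array. The 36.9, on mHep replicate 3 of C57B6-No1, was the only reading well above background, and the second probe had none.

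**Figure D4:**
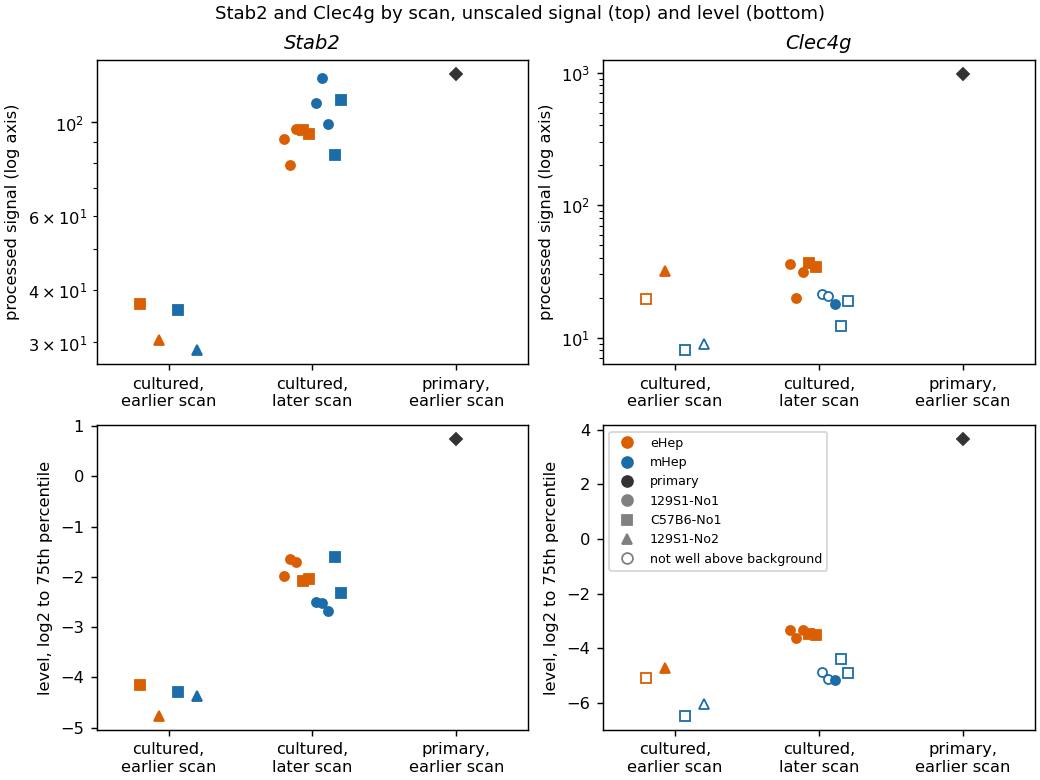
Stab2 and Clec4g on each array, by scan, as unscaled processed signal (top, log axis) and as level (bottom, log2 relative to the 75th percentile of the array), with colour for the group and shape for the mouse. Stab2 of cultured cells lies at levels of -4.76 to -4.16 in the earlier scan and -2.68 to -1.61 in the later one, with the primary array at 0.74. The primary array is far above both scans for Clec4g.

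Tm4sf1 set 129S1-No1 apart from the other 2 mice in both media. Its only probe lies at chr3:57091569-57091628 on the minus strand in mm9.
Tm4sf1, probe A_51_P240614: gtatattttccctgtgttgtgagactttgc
In eHep the probe read 119.1, 107.7 and 118.7 in 129S1-No1, 36630, 34617 and 36840 in C57B6-No1, and 31324 in 129S1-No2. In mHep it read 49.0, 45.2 and 49.2 in 129S1-No1, 44165, 64183 and 32328 in C57B6-No1, and 25872 in 129S1-No2. Primary cells read 174.7, and all 15 readings were well above background. Every array of 129S1-No1 was below the primary array, and every array of the other mice was far above it. The mouse 129S1-No2, of the same labelled strain as 129S1-No1, lay with C57B6-No1. No Tm4sf1 reading was saturated. As levels, the means over arrays were -1.40 and -3.79 in eHep and mHep of 129S1-No1, 6.26 and 6.59 in C57B6-No1, 5.24 and 5.45 in 129S1-No2, and 1.16 in primary cells. The level in 129S1-No1 lay below primary cells by this measure as well.

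The differences between 129S1-No1 and C57B6-No1 were tested over their 12 arrays, since the set was not chosen by mouse. In eHep, Tm4sf1 was 203-fold lower in 129S1-No1 (log2 difference -7.66, SE 0.41, adjusted p = 5.91e-07 in limma, 3 arrays per mouse). In mHep it was 1335-fold lower (log2 difference -10.38, SE 0.41, adjusted p = 1e-07). From eHep to mHep Tm4sf1 changed by -2.39 in 129S1-No1 and by 0.33 in C57B6-No1, and the changes differed by -2.72 (SE 0.59, adjusted p = 0.0115). The differences in either medium kept their call under every alternative run. That of the changes was lost with normexp background (-1.20, adjusted p = 0.433) and with slide as a block (-2.09, adjusted p = 0.0647), and was -3.03 within the later scan.

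Ptprb was also lower in 129S1-No1. In eHep the mice stood at levels of 0.19 ± 0.08 and 2.03 ± 0.97 (SD, n = 3 arrays each), a log2 difference of -1.84 (SE 0.45, adjusted p = 0.0114 in limma) or 3.59-fold. In mHep they stood at -6.99 ± 0.66 and -3.92 ± 0.24, a difference of -3.07 (SE 0.45, adjusted p = 0.000482), and at least 2.26-fold since 129S1-No1 was dark there. The changes from eHep to mHep did not pass a test of their difference (-1.23, adjusted p = 0.204), but did so within the later scan (-1.66, adjusted p = 0.0197), and turned sign with normexp background (1.70, adjusted p = 0.362). The eHep array of C57B6-No1 with 5850.3 belonged to the earlier scan, and without it the eHep difference was -1.29 (adjusted p = 0.0194) and that of the changes -1.79 (adjusted p = 0.0244). With normexp background the calls of Ptprb were lost in eHep (-1.70, adjusted p = 0.142) and in mHep (-0.0040, adjusted p = 0.998), as they were with slide as a block (-1.25 and -1.68, adjusted p = 0.0769 and 0.141) and, in eHep, with the mean of all 4 probes (-0.31, adjusted p = 0.559).

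Kdr entered the fit between mice only through eHep of C57B6-No1, where it was high. The directions of its eHep call and of the difference of its changes therefore come with the filter, and both are given as a description. Kdr was lower in 129S1-No1 in eHep. It stood there at levels of -6.04 ± 0.34 in 129S1-No1, where it was dark, and -2.78 ± 0.52 in C57B6-No1 (SD, n = 3 arrays each), at least 2.37-fold lower in 129S1-No1 (log2 difference -3.26, SE 0.47, adjusted p = 0.000519 in limma). In mHep it stood at -4.94 ± 0.82 against -6.44 ± 0.74 (difference 1.5, adjusted p = 0.0371), and no fold is given since C57B6-No1 was dark there. The changes from eHep to mHep differed by 4.76 (SE 0.67, adjusted p = 0.00125), and by 4.11 within the later scan. Neither the mHep difference nor that of the changes held once dark readings were raised to the background limit: the first was then -0.13 (adjusted p = 0.859) and the second 1.11 (adjusted p = 0.213). With normexp background none of the Kdr calls remained, the eHep difference being -0.53 (adjusted p = 0.608), the mHep difference 0.74 (adjusted p = 0.460) and that of the changes 1.27 (adjusted p = 0.442).

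Flt1 did not differ beyond the spread between arrays in eHep, at levels of 0.78 ± 0.19 and 0.61 ± 0.57 (difference 0.17, SE 0.29, adjusted p = 0.688 in limma). In mHep it was 2.24-fold higher in 129S1-No1, at 1.99 ± 0.25 against 0.82 ± 0.28 (SD, n = 3 arrays each; difference 1.17, SE 0.29, adjusted p = 0.0126). No slide held mHep arrays of both mice, and with slide as a block the mHep difference was -0.14 (adjusted p = 0.855), while within the later scan it was 1.32 (adjusted p = 0.000611). It was also lost with normexp background (0.88, adjusted p = 0.100), with the mean of all probes (0.38, adjusted p = 0.275) and without mHep replicate 2 of 129S1-No1 (1.04, adjusted p = 0.0552). Stab2 and Clec4g differed between the mice by 0.98 and 0.58 in eHep (adjusted p = 0.294 and 0.425) and by 0.18 and 0.20 in mHep (adjusted p = 0.870 and 0.815), within the spread between arrays. Clec4g entered only through eHep of 129S1-No1. In mHep it was well above background on 1 of 3 arrays of 129S1-No1 and 0 of 3 of C57B6-No1, so that difference is of readings near background.

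In eHep, 3 of the 6 members that entered this fit were called lower in 129S1-No1 and none higher, where 12.5% of all genes were lower and 14.9% higher. Of these 3, Kdr entered only through eHep of C57B6-No1, where it was high. In mHep, 2 were lower and 2 higher, where 15.8% of genes were lower and 12% higher. Of the changes, 1 was lower and 1 higher, where 10.3% of genes were lower and 6.3% higher. The higher one was Kdr, with the same limit. On the slide that held all eHep arrays of 129S1-No1 and replicate 1 of C57B6-No1, the C57B6-No1 array was the highest for Tm4sf1 (36630 against 107.7 to 119.1), Ptprb (1099.2 against 275.2 to 397.9) and Kdr (48.5 against 3.6 to 6.5). Hepatocyte markers also moved with these mice: of 9 tested, 5 were higher in 129S1-No1 in eHep and 8 in mHep, with none lower. Of 7 bile duct and progenitor markers, 3 were lower and 1 higher in 129S1-No1 in eHep, and 4 were lower in mHep. Their part in the differences of Tm4sf1, Ptprb and Kdr was not tested.

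**Figure D5:**
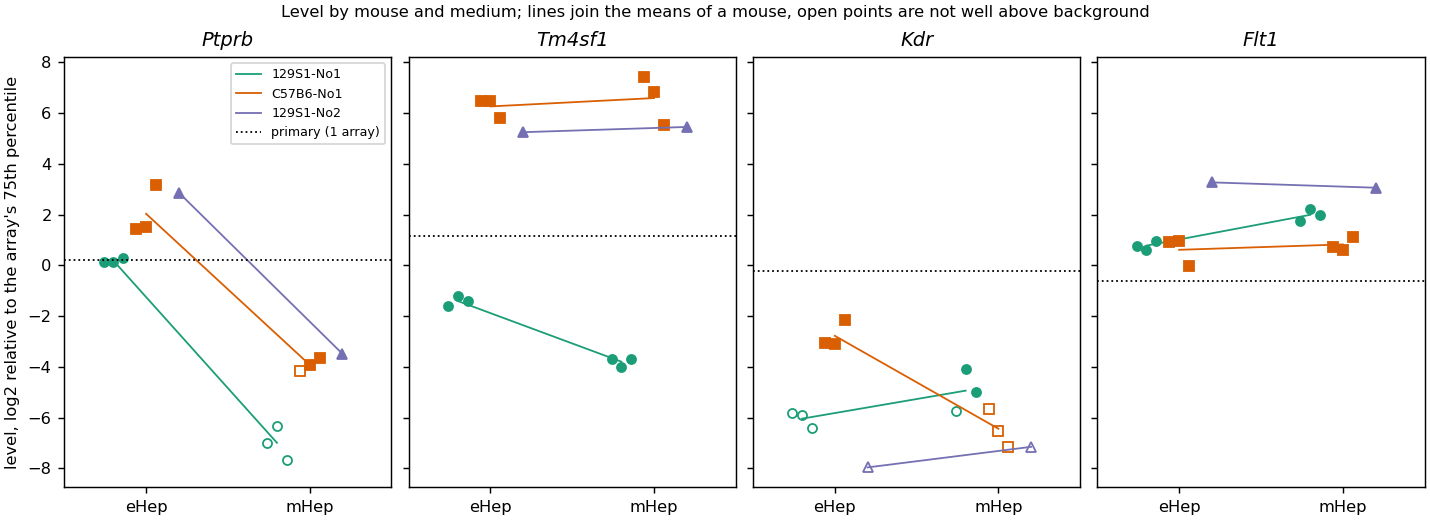
Level (log2 relative to the 75th percentile of the array) of Ptprb, Tm4sf1, Kdr and Flt1 on each cultured array by mouse and medium, with lines joining the means of a mouse, open points where the probe was not well above background, and a dotted line at the single primary array. Ptprb, by the probe used, drops in all 3 mice, by -7.18, -5.95 and -6.35. Tm4sf1 of 129S1-No1 lies at -1.40 and -3.79, below the other mice in both media, and Kdr is well above background only in eHep of C57B6-No1 and on 2 mHep arrays of 129S1-No1.

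The rest of the endothelial program was read from lists of other genes. Of 22 further endothelial identity genes, 10 entered the comparison of mHep with eHep and none was called, with a median difference of -0.64 against -0.10 over all genes. By the rule for naming, the brightest were Thbd (thrombomodulin), Egfl7, Ecscr and Ets1. Thbd stood at a level of 4.27 ± 1.70 in eHep and 3.65 ± 0.90 in mHep (mean ± SD over 3 mouse means, as for all list genes), against -3.87, not well above background, in primary cells. Ets1, an ETS transcription factor, stood at 0.89 ± 0.53, 0.23 ± 0.38 and, also dark in primary cells, -2.99. Both were called higher in each medium than in primary cells. They entered only through cultured arrays, where they were high, so that direction came with the filter. Egfl7 (0.90 ± 1.48, 1.22 ± 0.45 and 1.57) and Ecscr (0.34 ± 2.36, 0.27 ± 2.68 and -2.48) were not called in either.

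Against primary cells 14 of the 22 entered for eHep, with 2 higher and 5 lower. For mHep 13 entered, with 2 higher and 4 lower. The backgrounds given above were 6.53% higher and 10.6% lower for eHep, and 4.29% and 6.32% for mHep. The genes called lower in eHep were Robo4, Mmrn2, Icam2, Nos3 and Plvap, named after their values were seen. Of these, Robo4, Mmrn2 and Icam2 entered either comparison only through the primary array, where they were high, so their direction came with the filter. Robo4, a guidance receptor of endothelium, was well above background on the primary array at a level of 1.12 and on no cultured array. It was at least 62.5-fold lower in eHep. Icam2, an endothelial adhesion molecule, read 0.01 in primary cells and was at least 28.0-fold lower in eHep. So the primary array held several endothelial transcripts beside Clec4g, Stab2, Kdr and Cdh5, while Pecam1, Tek, Lyve1, Tie1, Emcn, Erg and Sox18 were not above background there. Of the endothelial list, 9 of 22 genes were well above background in primary cells, against 9 to 13 on eHep arrays and 8 to 12 on mHep arrays. The summed linear level of the list was 14.4 in primary cells, 7.70 to 56.3 in eHep and 15.7 to 28.3 in mHep. These sums hold Thbd, at levels of 2.34 to 5.55 on eHep arrays and 2.25 to 4.42 on mHep arrays. They are weighted to such bright genes and do not measure the list as a whole. Of the 22 genes, 6 were dark on all eHep arrays, 8 on all mHep arrays and 13 on the primary array.

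Of 17 further sinusoidal genes, 8 entered mHep against eHep and 1 was called, higher, beside 1.38% of all genes higher. That gene was Cd36, a fatty acid transporter that hepatocytes also express, at -5.11 ± 0.75 in eHep and 3.44 ± 0.78 in mHep, at least 229-fold (adjusted p = 0.00197 in limma). Cd36 entered only through mHep, where it was high, so its direction came with the filter. Maf (2.07 ± 0.99 and 3.06 ± 0.85), Stab1 (-0.86 ± 2.48 and -2.05 ± 1.02) and Oit3 (-0.49 ± 0.82 and -1.86 ± 0.52) were the next brightest and were not called. Against primary cells 3 of 10 were lower in eHep, Dnase1l3, Fcgr2b and Wnt2, and none higher, beside 10.6% of all genes lower. In mHep 3 of 11 were lower, the same genes, and 1, Cd36, was higher, beside 6.32% of all genes lower and 4.29% higher. Dnase1l3, Fcgr2b and Wnt2 entered only through the primary array, and Cd36 only through mHep, where each was high, so these directions came with the filter. Dnase1l3, a secreted nuclease, read a level of 1.30 in primary cells and was at least 69.6-fold lower in eHep. The summed linear level was 19.4 in primary cells, 3.05 to 12.9 in eHep and 19.3 to 29.5 in mHep, the last with Cd36 in it. Of 6 lymphatic genes 2 entered mHep against eHep and none was called, and Prox1, also a hepatocyte factor, stood at -4.14 ± 0.58 and -0.85 ± 1.20 (adjusted p = 0.0517).

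Ligands and co-receptors of the angiopoietin and growth factor pathways were largely on in culture, while their sum was not clearly brighter there. Of the 24 genes, 17 to 19 were well above background on eHep arrays, 17 to 21 on mHep arrays and 10 on the primary array. Over those that entered, the median difference from primary cells was 1.09 in eHep and 0.31 in mHep, against -0.13 and -0.29 over all genes. The summed linear level was 87.0 in primary cells, 78.9 to 118 in eHep and 47.4 to 78.7 in mHep, and is weighted to bright genes. S1pr1 and Angpt4, named after their values were seen, were brighter in primary cells, at levels of 3.45 and 5.65. Angpt4 was the brightest of the list there, and the primary sum is weighted to it. In eHep they stood at -6.44 and -4.30, and in mHep at -6.25 and -2.34. The genes named below were at or above primary cells in eHep. Of 24 genes 18 entered mHep against eHep, none was called, and the median difference was -0.51. Vegfa and Vegfb, ligands of Flt1 and, for Vegfa, of Kdr, stood at levels of 3.50 ± 0.63 and 4.10 ± 0.97 in eHep and 3.13 ± 1.00 and 3.03 ± 0.13 in mHep, against 2.22 and 2.72 in primary cells. Ctnnb1 (beta-catenin) stood at 4.93 ± 0.16 and 4.76 ± 0.38. The Notch ligand Jag1 stood at 2.62 ± 0.64 and 2.29 ± 0.90, against a dark -4.26 in primary cells. Jag1 entered the comparisons with primary cells only through cultured arrays, where it was high. Angpt2, the angiopoietin that modulates Tek, was named after its values were seen: it stood at 0.08 ± 1.81 in eHep and -3.10 ± 0.21 in mHep, and differed by -5.05, -2.42 and -2.09 in the 3 mice, without passing the test (adjusted p = 0.0835). Against primary cells 19 of the 24 entered each comparison, with 2 higher and 2 lower in eHep and 1 higher and 2 lower in mHep. Over all genes 6.53% were higher and 10.6% lower in eHep, and 4.29% and 6.32% in mHep.

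Of 19 other receptor phosphatases, 13 entered mHep against eHep and none was called, with a median difference of -0.11 against -0.10 over all genes. The brightest were Ptprz1, Ptprf, Ptprk and Ptprs, whose differences from eHep to mHep were -0.28, 0.00, -0.11 and -0.99 on the log2 scale. The Ptprz1 probe read a level of 11.80 in primary cells, where that of Alb read 11.57. Whether the probe reports Ptprz1 alone was not tested, so its brightness is not read as expression of that gene. Against primary cells 1 of 12 was called higher and 2 lower in eHep, and 1 of 11 higher and 1 lower in mHep. The shares over all genes were 6.53% higher and 10.6% lower in eHep, and 4.29% and 6.32% in mHep. Ptprs rose over primary cells in both media (4.81 in eHep, adjusted p = 0.00894, and 3.82 in mHep, adjusted p = 0.0283, in limma). Ptprd was lower in both (-4.83, adjusted p = 0.0158, and -4.20, adjusted p = 0.0344) and Ptprm in eHep (at least 21.6-fold, adjusted p = 0.0421). Of 4 L6 family genes beside Tm4sf1, 2 entered mHep against eHep and none was called. Tm4sf4, the family member known from liver, stood at 6.58 ± 1.17 in eHep, 6.46 ± 0.44 in mHep and 5.34 in primary cells, and differed between 129S1-No1 and C57B6-No1 by 0.35 in eHep and -0.27 in mHep (adjusted p = 0.422 and 0.573). Tm4sf20 was dark in eHep of both mice, and in mHep it was at least 65.1-fold lower in 129S1-No1, dark at a level of -6.42 against 0.98 in C57B6-No1 (difference -7.40, adjusted p = 2.96e-05 in limma). In mHep of 129S1-No2 it stood at -0.23, near C57B6-No1, as Tm4sf1 did. Tm4sf20 entered the fit between mice only through mHep of C57B6-No1, where it was high.

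The genes most like a member in pattern were sought by Pearson r of the level over all 15 arrays, among 13938 genes well above background on at least 3 arrays. The r values are descriptions without p, and the arrays share mice, scans and slides. Most like Ptprb were Wdr77 (r = 0.964), Recql4 (0.948), Cdc20 (0.943), Pabpc4 (0.937), Tcf7 (0.935) and Acsbg1 (0.933), with 39 genes above 0.9. Most like Tm4sf1 were Trp53i11 (0.982), Ripk3 (0.981), Sparc (0.971), Mcam (0.968), Serf1 (0.967) and Tbc1d9 (0.967), with 76 above 0.9. For Stab2 there were 434 above 0.9, among them Mdga2 (0.991), Olfr312 (0.988), Gpihbp1 (0.984), Chrne (0.983) and Mcee (0.981). Olfr312 stood at -7.58 and -6.97 in eHep and mHep of 129S1-No2, both of the earlier scan. It stood at -4.16 and -4.60 in 129S1-No1, all of the later scan, and at -1.34 in primary cells. Between these 2 mice, mouse and scan cannot be told apart. In C57B6-No1, which had arrays in both scans, its means were -5.01 and -4.94, and they were not split by scan.

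Promoter windows of RefSeq on GRCm38.p6, which hold 250 bases before the start site, were found for 6 of the 10 genes, and not for Pecam1, Cdh5, Lyve1 and Ptprb. Those of Tm4sf1, Clec4g and Flt1 are printed because the results turn on them: a difference by mouse, a gene bright only in primary cells, and a gene on in all cultures. They lie at chr3:57301989-57302238, chr8:3720652-3720901 and chr5:147726012-147726261, all on the minus strand, and read 5′ to 3′ along the gene. Capitals mark the core AGGAAG bound by ETS factors, on either strand.
Tm4sf1: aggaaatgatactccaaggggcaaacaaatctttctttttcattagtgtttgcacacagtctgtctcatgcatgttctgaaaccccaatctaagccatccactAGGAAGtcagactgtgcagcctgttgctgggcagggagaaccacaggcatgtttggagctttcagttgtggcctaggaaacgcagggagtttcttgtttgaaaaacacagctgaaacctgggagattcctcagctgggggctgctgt
Clec4g: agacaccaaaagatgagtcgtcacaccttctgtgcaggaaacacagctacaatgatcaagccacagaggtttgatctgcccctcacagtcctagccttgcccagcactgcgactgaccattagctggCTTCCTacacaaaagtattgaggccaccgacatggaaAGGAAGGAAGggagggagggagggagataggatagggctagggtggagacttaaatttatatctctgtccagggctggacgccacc
Flt1: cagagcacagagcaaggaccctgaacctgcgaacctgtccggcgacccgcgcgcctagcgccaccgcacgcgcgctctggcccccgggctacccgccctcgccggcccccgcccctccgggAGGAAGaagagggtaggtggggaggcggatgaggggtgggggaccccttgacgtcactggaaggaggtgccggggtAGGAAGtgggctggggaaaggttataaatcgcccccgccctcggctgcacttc

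The ETS core occurred 1 time before Tm4sf1, 147 bases from the start, 2 times before Flt1, at 129 and 53 bases, and 3 times before Clec4g, at 123, 86 and 82 bases, with the last 2 overlapping and the first on the other strand. It also occurred before Stab2, on the other strand, and not before Kdr or Tek. Over 32851 windows of the same length 29.5% held it. The AP-1 site TGANTCA, held by 6.75% of windows, and the TEAD site GGAATG, which shares the letters GGAA with the ETS core and was held by 12.6%, occurred in none of the 6. These matches describe letters and are neither sites nor causes.

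Some markers of other cells were also found in primary cells, and others were brighter in culture. Of 12 Kupffer cell and leukocyte markers, 9 were well above background on the primary array, 3 to 6 on eHep arrays and 4 to 6 on mHep arrays, and their summed linear level was 22.9, 5.58 to 50.4 and 30.3 to 180. Clec4f, a lectin of Kupffer cells, and Cd5l, a protein that macrophages secrete, had levels of 1.19 and 3.32 in primary cells and were well above background on no cultured array. Of the 10 markers that entered each comparison with primary cells, 4 were called lower in culture (these 2, Adgre1 and C1qa) and 1 higher. Among all genes 6.53% were higher and 10.6% lower in eHep, and 4.29% and 6.32% in mHep. The markers called lower entered only through the primary array, where they were high, so their direction came with the filter. The marker called higher was Cd14, an endotoxin co-receptor, at a level of 4.55 in eHep and 5.85 in mHep against -1.11 in primary cells. The summed levels in culture hold Cd14, at 2.31 to 5.53 on eHep arrays and 4.90 to 7.48 on mHep arrays. Cd68 was well above background on all 14 cultured arrays and not on the primary array. Both red blood cell markers found on the array were well above background on the primary array, with a summed level of 91.1, against 0.0097 to 0.081 in eHep. Of 12 stellate cell and fibroblast markers, 3 were well above background on the primary array, and 2 to 5 on cultured arrays. The 3 were Acta2, Dcn and Col1a2, at levels of 3.71, 2.16 and -0.86. The other 9, among them Des, Lrat, Pdgfrb and Pdgfra, were dark there. Acta2 was also well above background on all 14 cultured arrays. Of 5 mesothelial markers none was in primary cells, and 1 to 4 were on cultured arrays. The part of these cells in the endothelial signals of the primary array was not tested.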

How the data were processed

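Per the file headers, each of the 15 arrays was scanned in 1 colour, and Agilent Feature Extraction (version 10.7.1.1 for 5 arrays, 10.7.3.1 for 10) wrote a processed signal, an intensity with background removed and no scaling between arrays. The authors deposited a table of log2 values besides, whose making is not stated in the labels; its columns followed the log2 signal of their array with r of 0.972 to 0.9999 and had 1 common median.

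Of 45018 spots per array, 43379 were of real probes. Spots of a probe were averaged on the log2 scale without outlier spots, levels were centred on the 75th percentile of the array, and a gene took its probe with the highest mean. limma 3.58.1 in R 4.3.3 fitted mHep against eHep on 6 means per mouse and medium with mouse as a block, primary cells with the cultured means, and mice on 12 arrays. The threshold was a Benjamini-Hochberg adjusted p of 0.05, and also a log2 difference of 1 against primary cells. Eligible genes were well above background on all arrays of 2 of 3 mice, on all arrays of 1 mouse and medium for mice, or on the primary array. "At least" folds put a dark reading at the dimmest signal that its array called well above background. The fits were tested on simulated data. Figures used matplotlib 3.10.9.

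Mouse names paired eHep and mHep: deviations of a mouse correlated at 0.40, 0.56 and 0.54, those of different mice at 0.0115 or less. Named from the lists were up to 4 genes each: called genes of mHep against eHep by size, then the brightest. Genes most like a member were the 6 with the highest r, of which 1 is not reported here. The members, lists and tests were chosen with earlier results of these data known. Alternatives were quantile normalization, normexp (offset 50) as background correction, another percentile, the deposited table, no filter, the mean of all probes, slide, scan or replicate as a block, arrays as samples, and leaving out mice or arrays; median spots, the later scan alone and raised dark readings were added after the data were seen.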

Additional observations from a re-analysis of the deposited data

Results flagged for a closer look

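Flt1 in eHep of 129S1-No2 stood at a level of 3.2668, far from the nearest of the other 6 eHep arrays at 0.9713. The gap was 0.694 of the whole range, above the critical value of 0.568 for 7 arrays. Lyve1 in the same sample stood at -8.1858 against a nearest value of -6.892, a gap of 0.609 of the range, but all of these Lyve1 readings were under background. For independent samples chance sets apart about 1 in 20 groups, but these 7 arrays come from 3 mice and this one is the only eHep array of its mouse, so neither the critical value nor that rate holds strictly here.

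The change of Kdr from eHep to mHep differed between 129S1-No1 and C57B6-No1 by 4.7627 (adjusted p = 0.00125 in limma). Kdr entered that fit only through eHep of C57B6-No1, where it was high, so this direction comes with the filter. The difference was 1.11 with dark readings raised to the background limit (adjusted p = 0.213) and 1.27 with normexp background (adjusted p = 0.442), and so lost its call under both. The change of Tm4sf1 differed by -2.7197 (adjusted p = 0.0115 in limma). That difference was -1.20 with normexp background (adjusted p = 0.433) and -2.09 with slide as a block (adjusted p = 0.0647). Both compare 1 mouse with 1 mouse, with 3 arrays in each medium.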

How the results depend on the processing

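Fits with slide or scan as a block, of the media and against primary cells, took single arrays as samples in place of mouse means. Their counts are therefore not those of a block alone. Of mHep against eHep, 268 genes were called. The number was 176 with normexp background, 110 with quantile normalization and also with the deposited table, 105 with the percentile of probes detected on all arrays, 658 with no filter, 3006 with slide and 6176 with scan as a block, 5024 with 14 arrays as samples, 1520 in the earlier scan alone, 7346 in the later scan alone, and 513 to 829 leaving out a mouse. With no replicate block and mouse not in the fit, without the pairing by mouse, 2 genes and 0 members were called, and with mouse and replicate block on 14 arrays 4607 genes and 2 members. Members called, 1 in the fit reported, were 0 with the mean of all probes (235 genes) and 3 with slide. They were 2 with scan as a block, with 14 arrays and in the later scan, and 1 without any mouse.

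Of eHep against primary cells, 2452 genes and 2 members were called: 8511 and 5 with no filter, 7717 and 5 with slide, 6848 and 4 with scan as a block, 5697 and 5 in the earlier scan. Leaving out a mouse gave 670 (without C57B6-No1) to 2692 genes and 2 to 3 members. Of mHep against primary cells, 1559 genes and 2 members were called: 998 and 1 with normexp, 8829 and 6 with no filter, 7437 and 5 with slide, 7168 and 6 with scan, 4177 and 5 in the earlier scan, 179 (without C57B6-No1) to 1700 genes and 2 to 4 members (4 without 129S1-No1) leaving out a mouse.

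Between mice in eHep 4327 genes and 3 members were called, 1491 and 1 with normexp, 2992 to 5479 and 3 without single arrays. In mHep 4374 and 4 were called. The counts were 1781 and 1 with normexp, 4247 and 2 with the mean of all probes, and 2240 and 1 with slide as a block. They were 7789 genes with scan as a block, 7808 in the later scan, and 3082 to 5472 genes and 2 to 4 members without single arrays (2 without mHep replicate 2 of 129S1-No1). Of the changes 2615 and 2 were called. The counts were 610 and 0 with normexp, 1331 and 1 with slide, 6235 genes with scan, 5723 and 4 in the later scan, and 2642 and 1 with dark readings raised. Without single arrays they were 1504 to 4943 genes and 2 to 4 members (4 without eHep replicate 3 of C57B6-No1). In mHep, Kdr turned to -0.1324 with dark readings raised and Flt1 to -0.1432 with slide as a block. Replicate numbers within a mouse were not taken as pairs. Same-numbered arrays of the 2 media correlated at -0.0492, -0.0937 and -0.1364 in 129S1-No1 and 0.5855, -0.1006 and 0.6916 in C57B6-No1. Differently numbered arrays of C57B6-No1 correlated at -0.7351 to 0.7126, and its replicate 3 was alone in the earlier scan in each medium. With a replicate block 4228 genes and 3 members were called in eHep, 4219 and 3 in mHep, and 2433 and 2 of the changes. Where single arrays took the place of mouse means, fewer arrays entered a fit or genes were filtered otherwise, the fit itself changed. The cause was not tested further. Readings near background limit Pecam1, Tek, Lyve1, Kdr and mHep values of Ptprb.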

Other observations

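Among the endothelial lists, a few other genes differed between 129S1-No1 and C57B6-No1, and were chosen after their values were seen. Of these, Ehd3 and Gpr182 entered that fit only through arrays of C57B6-No1, where they were high. Ehd3, a sinusoidal endothelial trafficking gene, was dark on all 6 arrays of 129S1-No1 and well above background on all 6 of C57B6-No1, with levels of -6.31 against -2.89 in eHep (at least 2.19-fold, adjusted p = 1.08e-05 in limma) and -6.17 against -2.07 in mHep (at least 8.14-fold, adjusted p = 2.41e-06). Gpr182, a receptor of sinusoidal and lymphatic endothelium, was above background only in mHep of C57B6-No1 among the cultures, at a mean of -0.96 against -6.48 in 129S1-No1 (at least 17.6-fold, adjusted p = 1.36e-05).

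Nrp2, a co-receptor for vascular endothelial growth factors and semaphorins, went the other way, with levels of 3.55 against 2.54 in eHep (adjusted p = 0.0138 in limma) and 2.52 against -1.19 in mHep (adjusted p = 2.38e-06). Angpt2 stood at 2.14 against -0.66 in eHep (adjusted p = 0.000346) and at -2.91 against -3.08 in mHep (adjusted p = 0.791), and its changes differed between the mice (adjusted p = 0.00917). These are 1 mouse against 1 mouse, and no cause was tested.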
